A study of Mus musculus with 6 samples.

Results

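The heat shock and DnaJ chaperone genes were examined in mouse liver sinusoidal endothelial cells (LSECs) taken from liver metastases of human colorectal cancer cells. Genes were chosen by symbol alone: HSP90 genes, the numbered genes of the Hspa, Hspb, Hspd, Hspe and Hsph series, and the numbered Dnaja, Dnajb and Dnajc genes, without entries named as pseudogenes. The rule found 73 of the 60832 genes in the table, and 64 of them had enough reads to be tested. All 6 libraries came from xenografts of HCT116, a human colorectal cancer line, grown in the liver of male BALB/c nude mice, which lack T cells. The labels call 3 of the xenografts bevacizumab-sensitive and the other 3 bevacizumab-resistant, bevacizumab being an antibody to human VEGF-A. In the study, resistance of such xenografts was acquired under repeated intraperitoneal bevacizumab while vehicle mice received IgG, and whether the sensitive mice of these libraries received drug or vehicle is not given in the sources used here. The cells were captured with anti-CD146 beads, and per the labels were cultured for 24 h before RNA extraction. HCT116 is a single tumor line, so the libraries do not sample tumors of different origin.

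Chaperones bind unfolded proteins and help them fold, assemble or be degraded. HSP70 proteins do this in an ATP-driven cycle in which a DnaJ (HSP40) partner delivers the client and stimulates ATP hydrolysis, an HSP110 protein such as Hsph1 exchanges the nucleotide, and HSP90 acts late on clients such as kinases. The endoplasmic reticulum (ER) and the mitochondrion have chaperones of their own. Heat and other protein stress switch on the cytosolic set through heat shock factor 1 (Hsf1), which binds heat shock elements made of alternating GAA and TTC units, and the unfolded protein response acts on ER chaperones through ER stress elements.

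No chaperone gene passed the test between the sensitive and resistant groups. No member had an adjusted p under 0.05 in edgeR's quasi-likelihood test, a share of 0% that was also that of all 15474 tested genes, and the smallest adjusted p of a member was 0.940. One member, Hsph1, had an unadjusted p under 0.05 in the edgeR test, which is 1 of 64 against a background of 3.08% of all tested genes. By DESeq2's Wald test, 4 members had an unadjusted p under 0.05 (Hsph1, Hspa1a, Hspa1b and Dnajc17), with a background of 4.73%, and none had an adjusted p under 0.05. The clearest pattern was within the groups: the stress-inducible Hspa1a and Hspa1b varied widely among the resistant libraries, and 1 sensitive library, replicate 2, set the direction of the mitochondrial chaperones.

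Several facts of the libraries bear on these values. Library totals were between 17599326 and 20726684 counts, and 3 counts corresponded to 0.145 to 0.170 CPM, the counts scaled to a fixed library total. Levels by library are given as CPM scaled by TMM factors, which remove differences in library composition, with no correction for gene length. Sensitive replicate 2 stood apart, with a median correlation of 0.872 to the other libraries against 0.957 to 0.963 for the rest. The summed level of 9 LSEC markers was between 1069 and 2388 CPM. Most of it came from Stab1 (496 to 778 CPM) and Mrc1 (382 to 1199 CPM). The other LSEC markers were between 0.822 and 238 CPM. How much of the LSEC sum came from LSECs was not tested. The sum of 13 macrophage and Kupffer cell markers was between 22100 and 41710 CPM, so the libraries held much macrophage RNA. Of the 9 endothelial markers, 5 (Kdr, Tek, Egfl7, Erg and Emcn) were lower in every resistant library than in any sensitive one, beside 4.38% of all tested genes. Pecam1, Cdh5, Tie1 and Mcam overlapped between the groups, and Cdh5 was highest in resistant replicate 3 at 230 CPM. Mcam, which encodes the CD146 used for capture, was at 0.308 to 3.87 CPM over the libraries. The summed level of the 9 markers overlapped too, at 306.5, 182 and 385 CPM in the sensitive and 285, 38.7 and 306 CPM in the resistant libraries. It was lowest in resistant replicate 2. Whether these differences in cell composition contributed to any chaperone value was not tested, and in such bulk samples fewer cells of a type and less RNA per cell cannot be told apart.

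The promoters of Hspa1a and Hspa1b are shown because these genes had the largest positive fold changes and are near-copies of each other on chromosome 17. RefSeq promoter windows (GRCm38.p6, from 250 bases before to 50 bases after a start) were matched by symbol for 58 of the 73 members, and those without include Dnajc2, Dnajc5, Dnajc5b, Dnajc11, Dnajc12, Dnajc18, Dnajc22, Dnajc30, Hsp90aa1, Hsp90ab1, Hspa8, Hspa9, Hspa13 and Hspb2. Each stretch below is the 150 bases before the start, read 5′ to 3′ on the minus strand, with the GAANNTTC element in capitals.
Hspa1a, chr17:34972157-34972306: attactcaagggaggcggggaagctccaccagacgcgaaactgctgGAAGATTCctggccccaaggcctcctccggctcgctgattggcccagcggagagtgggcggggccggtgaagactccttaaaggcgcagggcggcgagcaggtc
Hspa1b, chr17:34959239-34959388: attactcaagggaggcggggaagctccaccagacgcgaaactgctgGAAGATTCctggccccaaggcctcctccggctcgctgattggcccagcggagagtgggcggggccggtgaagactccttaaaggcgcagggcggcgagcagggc
The stretches share the same letter at 149 of 150 positions (99.3%), and the element starts 104 bases before each start. The transcripts are also alike: 60.3% of the 50-base words of Hspa1a and 62.3% of those of Hspa1b occur in other genes, chiefly in each other, so reads can be split between them or lost.

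Among the members with a window, the longest heat shock element lay before the starts of Hspd1 and Hspe1. It begins 144 bases before the start of Hspd1 and 89 before that of Hspe1. These genes encode the mitochondrial chaperonin HSP60 and its lid HSP10 and are transcribed head to head on chromosome 1. Units of the element are in capitals in the lines below, and for Hsph1 the run lies after the start, within the transcript.
Hspd1, chr1:55088053-55088082, minus strand: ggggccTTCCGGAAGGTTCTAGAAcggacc
Hspe1, chr1:55088053-55088082, plus strand: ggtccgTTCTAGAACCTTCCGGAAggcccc
Hsph1, chr5:149636280-149636308, minus strand: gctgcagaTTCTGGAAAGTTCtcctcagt
Hspb1, chr5:135887801-135887830, plus strand: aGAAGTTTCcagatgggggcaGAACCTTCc
Dnaja1, chr4:40722333-40722362, plus strand: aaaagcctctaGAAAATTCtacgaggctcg
Hspd1 and Hspe1 share 1 run of 4 units, read on opposite strands. A run of 2 units (GAANNTTC or TTCNNGAA, each its own reverse complement, with longer runs counted too) was found for 7 of the 9 heat shock factor responsive members with a window, for 9 of the other 49 members (18.4%) and for 17.0% of the 27025 genes with windows. A run of 3 units was found for 0.662% of these genes, among them Hsph1, Hspd1, Hspe1 and Dnajb6, and a run of 4 units for 8 genes (0.0296%). The heat shock factor responsive members were listed from prior knowledge of that response, so the motif count describes the list and is not a test of it. A match of letters is a description of the window and does not show that a factor binds there.

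The members with the highest mean level per length were HSP90 and HSP70 genes. On the deposited FPKM scale, which divides counts by gene length and library total, Hsp90ab1, the constitutive cytosolic HSP90, had a mean of 426 ± 74.1 (SD, n = 6) and ranked 87 among all genes of the table. It was followed by the ER HSP70 Hspa5 (BiP) at 207 ± 31.7, the constitutive cytosolic HSP70 Hspa8 at 163 ± 36.2, the mitochondrial HSP70 Hspa9 at 133 ± 23.5 and the ER HSP90 Hsp90b1 at 124.5 ± 16.9 FPKM. Over the libraries Hspa5 (175 to 260 FPKM) overlapped Hspa8 (110 to 219 FPKM), and Hspa8, Hspa9 and Hsp90b1 overlapped each other. The order of genes that overlapped is not resolved. The highest member of the other families was Hspd1 for HSP60/HSP10 (97.4 FPKM), Dnajc8 for DNAJC (51.3 FPKM), Dnaja2 for DNAJA (50.9 FPKM), Hspa4 for HSP110 (47.4 FPKM), Dnajb11 for DNAJB (40.1 FPKM) and Hspb1 for the small HSPs (22.6 FPKM). Together the 3 HSP90 genes made up 30.2% to 36.3% of the summed FPKM of the members in each library, and the 11 HSP70 genes 25.2% to 29.4%. The inducible Hspa1b (11.5 FPKM) and Hspa1a (3.81 FPKM) were well below the constitutive Hspa8.

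**Figure D1:**
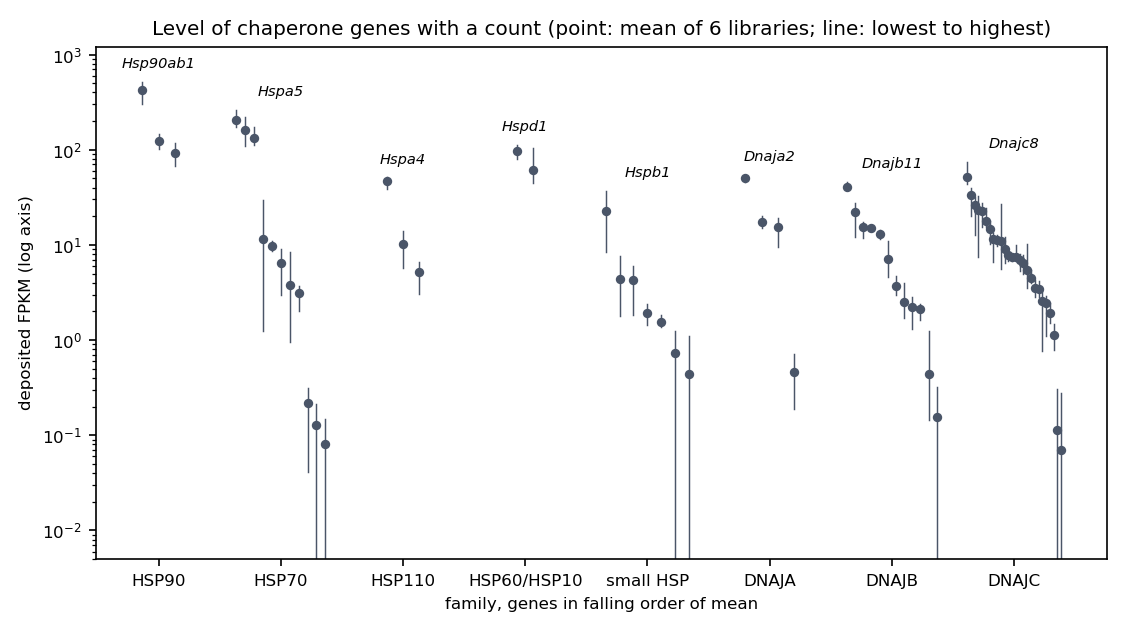
Deposited FPKM (log axis) of the chaperone genes with at least 1 count, by family, with 1 gene left out, with a point for the mean of the 6 libraries and a line from the lowest to the highest library; lines that reach the lower edge include a library at 0. Hsp90ab1, Hspa5, Hspa8, Hspa9 and Hsp90b1 have the highest means, led by Hsp90ab1 at 426 FPKM, and the name above each family is its highest gene.

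At the low end, Dnajb8, Dnajc5b, Dnajc5g and Hspb3 had no count in any library, which allows a level of up to 0.145 to 0.170 CPM per library by counting error alone. Dnajb3, Dnajb7, Dnajc22, Hspa1l and Hspb2 had between 0 and 26 counts per library and did not pass the filter on low counts. Of these, Dnajb3, which is best known from testis, had 26, 5 and 12 counts in sensitive replicates 1 to 3 and 6, 3 and 3 in resistant replicates 1 to 3. Hspa1l, the testis member of the HSP70 cluster next to Hspa1a, had at most 7 counts in a library.

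The highest library was under 2 times the lowest for 42 of the 64 tested members (65.6%), against 36.35% of all tested genes. The shares differed with the mean level. Above a mean level of 55.65 CPM the shares were 85.2% of 27 members and 56.1% of 3869 genes, and from 17.3 to 55.65 CPM they were 66.7% of 15 members and 52.6% of 3868 genes. From 2.78 to 17.3 CPM they were 52.9% of 17 members and 30.5% of 3868 genes, while below that level they were 0 of 5 members and 6.255% of 3869 genes. Dnaja2 and Dnaja3, partners of HSP70 in the cytosol and in mitochondria, were among the steadiest genes, with an SD of log2 CPM at percentiles 1.1 and 1.2 of tested genes. At the other end stood Hspa1b at percentile 97.9 and Hspa1a at 89.4, and the barely detected Hspa12a and Dnajc6 at 96.9 and 94.4.

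**Figure D2:**
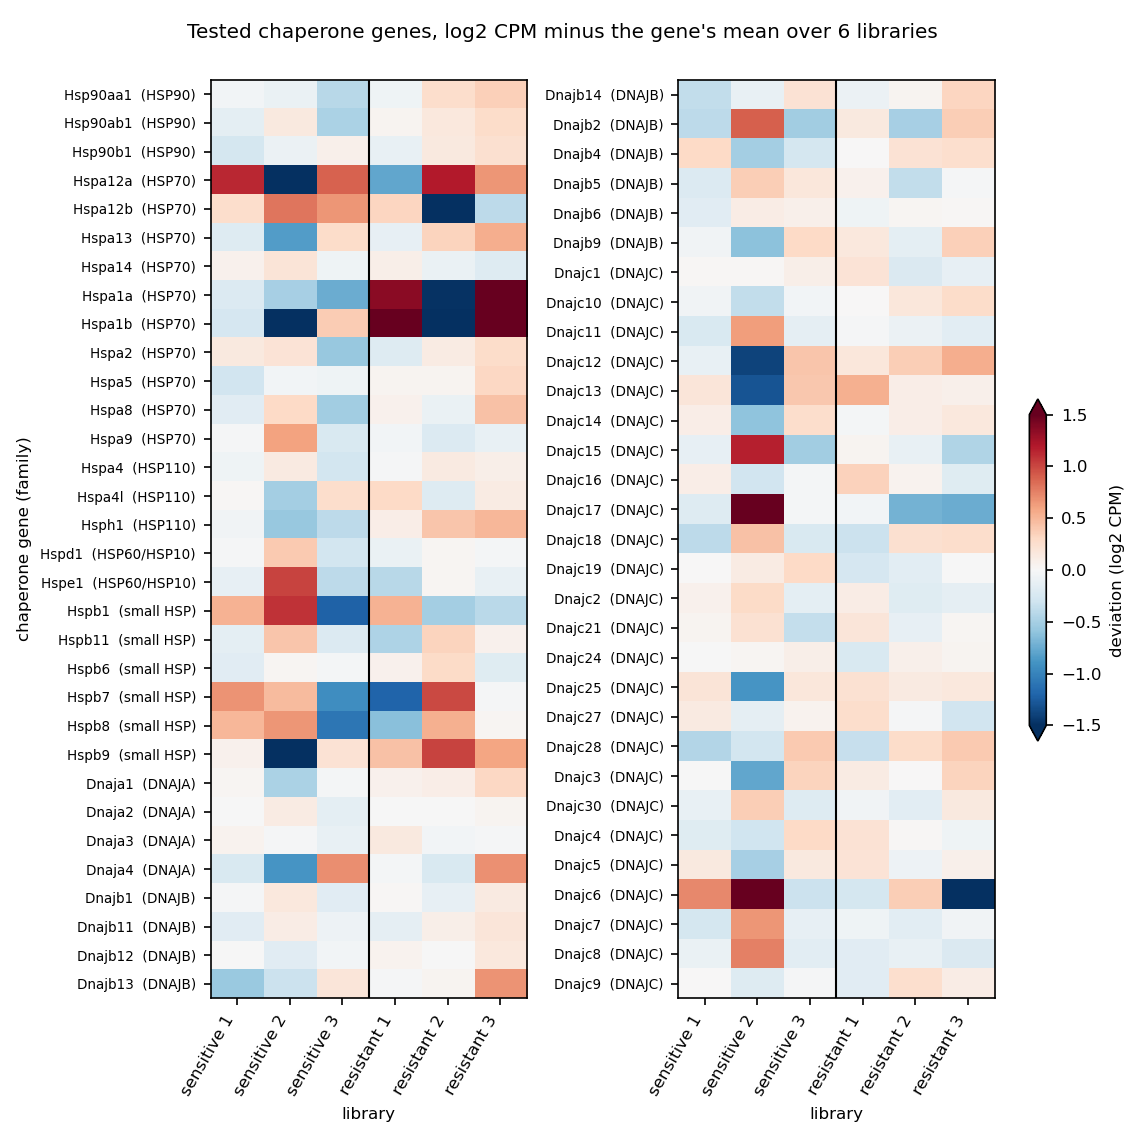
Log2 CPM of 63 of the 64 tested chaperone genes, each minus its own mean over the 6 libraries, one column per library, sensitive left of the line and resistant right of it; the colour scale stops at 1.5 in either direction. Hspa1a and Hspa1b are high in resistant replicates 1 and 3 and low in resistant replicate 2, and sensitive replicate 2 departs from the other libraries in many rows in both directions.

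Hspa1a and Hspa1b, the HSP70 genes that respond most to heat, were high in resistant replicates 1 and 3 and low in resistant replicate 2. Hspa1b was at 14.9, 4.02 and 23.1 CPM in sensitive replicates 1 to 3 and at 77.5, 4.42 and 64.1 CPM in resistant replicates 1 to 3. Hspa1a was at 7.08, 5.78 and 4.85 CPM in the sensitive libraries and at 21.2, 2.88 and 24.7 CPM in the resistant ones. So the groups overlapped for both genes, and the lowest Hspa1a value of all was in a resistant library. Because reads can be split between the genes, their sum is the safer measure, and it was 22.0, 9.80 and 27.9 CPM in the sensitive and 98.6, 7.29 and 88.8 CPM in the resistant libraries.

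The fitted log2 difference, resistant minus sensitive, was 1.46 ± 0.70 (SE) for Hspa1a with an unadjusted p of 0.0759 and an adjusted p of 0.940 in edgeR. For Hspa1b it was 1.79 ± 1.00 (SE), with an unadjusted edgeR p of 0.114 and the same adjusted p. Without resistant replicate 2 the differences were 1.97 for Hspa1a and 2.34 for Hspa1b. The unadjusted edgeR p was then 0.000769 for Hspa1a and 0.0110 for Hspa1b, with an adjusted p of 0.999 for both, and these fits had 2 resistant libraries. Without sensitive replicate 2 the differences were 1.44 and 1.35. No alternative setting brought an adjusted p under 0.05 for either gene. Resistant replicate 2 was also the library with the lowest summed level of endothelial markers (38.7 CPM against 182 to 385 in the others), with all 9 markers lowest there. All 6 hepatocyte markers were highest in the same library, with a summed level of 152 CPM against 28.9 to 93.1 in the others. The part of either in the Hspa1a and Hspa1b values was not tested.

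Hsph1, the HSP110 that exchanges nucleotide on HSP70 and is itself heat-inducible, was the member with the smallest p. It was at 67.9, 47.6 and 54.0 CPM in sensitive replicates 1 to 3 and at 75.5, 94.3 and 99.7 CPM in resistant replicates 1 to 3. Each resistant library was above each sensitive one. The log2 difference was 0.67 ± 0.22 (SE), with an unadjusted p of 0.0183 and an adjusted p of 0.940 in edgeR. Unlike Hspa1a and Hspa1b it was high in resistant replicate 2, and none of its 50-base words occurred in another gene. Over all alternative settings its log2 difference stayed between 0.55 and 0.83, and its unadjusted p, by edgeR, DESeq2 or limma, between 0.00993 and 0.0759.

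The other HSP110 genes had smaller differences. Hspa4 (Apg-2), the most abundant HSP110 gene per length, was at 249, 287 and 215 CPM in the sensitive and 258, 287 and 278.5 CPM in the resistant libraries, with a log2 difference of 0.13 ± 0.20 (SE). Hspa4l was at 58.2, 40.4 and 69.2 CPM in the sensitive and 71.1, 50.65 and 62.9 CPM in the resistant libraries, with a log2 difference of 0.14 ± 0.26 (SE). Both genes overlapped between the groups, and whether the difference of Hsph1 exceeded theirs was not tested.

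The cytosolic HSP90 genes lay somewhat higher in the resistant libraries, with overlap between the groups. Hsp90aa1, the heat-inducible form, was at 344, 329 and 265 CPM in the sensitive and 337, 426 and 454.5 CPM in the resistant libraries. Hsp90ab1 was at 1144, 1395 and 911 CPM in the sensitive and 1300.0, 1407 and 1535 CPM in the resistant libraries. Only sensitive replicate 1 for Hsp90aa1, and sensitive replicate 2 for Hsp90ab1, exceeded a resistant library. The log2 differences were 0.38 ± 0.22 (SE) for Hsp90aa1 and 0.30 ± 0.24 (SE) for Hsp90ab1, with unadjusted edgeR p of 0.130 and 0.256. The form ratio Hsp90ab1 over Hsp90aa1 stayed between 3.30 and 4.24 in CPM. Hsp90aa1 shares 47.5% of its 50-base words with other genes, mostly predicted ones, which makes its level less certain than that of Hsp90ab1 (3.4%).

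Hspa8, the constitutive HSP70, was at 611, 841 and 477 CPM in the sensitive and 716, 643 and 927 CPM in the resistant libraries, with the groups overlapping and a log2 difference of 0.24 ± 0.28 (SE). Hspa8 shares 38.6% of its 50-base words with other genes, so its level is also less certain. Its partner Dnaja1, a heat-inducible DnaJ protein of the cytosol, was at 134, 94.4 and 128 CPM in the sensitive and 137, 141 and 162 CPM in the resistant libraries. Dnaja1 did not overlap between the groups, but the gap was small and the log2 difference was 0.30 ± 0.21 (SE), with an unadjusted edgeR p of 0.193. Dnajb1, the classical inducible HSP40, stayed level at 36.8 to 46.3 CPM over the 6 libraries, with a log2 difference of 0.02 ± 0.19 (SE). Dnajb1 thus did not follow the wide swings of Hspa1a and Hspa1b.

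The small heat shock protein gene Hspb1, which encodes an ATP-independent holdase, varied within both groups. It was at 29.5, 43.8 and 8.81 CPM in the sensitive and 29.6, 14.5 and 15.5 CPM in the resistant libraries, a range of 4.97-fold. The log2 difference was -0.46 ± 0.57 (SE), and 48.8% of its 50-base words also occur in the pseudogene Hsp25-ps1. Hspb7 and Hspb8, small HSPs best known from muscle, ranged over 4.64-fold and 3.43-fold. Hspb7 was highest in resistant replicate 2 at 21.4 CPM. The summed level of the 5 stellate cell markers was also highest there (142 CPM against 27.8 to 52.0), but 135 CPM of it was Col1a1, Pdgfrb was the only other marker highest there, and the defining marker Lrat was at 0 to 0.196 CPM in all libraries. The part of such cells in the level of Hspb7 was not tested. Hspb9, a small HSP known from testis, was barely detected, at 0.431, 0 and 0.489 CPM in the sensitive and 0.589, 0.925 and 0.666 CPM in the resistant libraries, from at most 18 counts.

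Of the 12 heat shock factor responsive members, 9 had a log2 difference above 0, and 50.8% of all tested genes did. The list's median was 0.27, beside 0.11 for the 64 tested members and 0.01 for all tested genes. The 3 below 0 were Hspb1, Hspd1 and Hspe1, each of which was highest in sensitive replicate 2. Without that library 11 of 12 were above 0 with a median of 0.28, against 49.4% of all genes tested, and the exception was Hspa4l at -0.06. The median deviation of the list from its own mean was -0.05, 0.02 and -0.39 on the log2 scale in sensitive replicates 1 to 3 and 0.06, -0.03 and 0.29 in resistant replicates 1 to 3. Sensitive replicate 3 and resistant replicate 3 were the extremes, and the other 4 libraries lay between them.

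**Figure D3:**
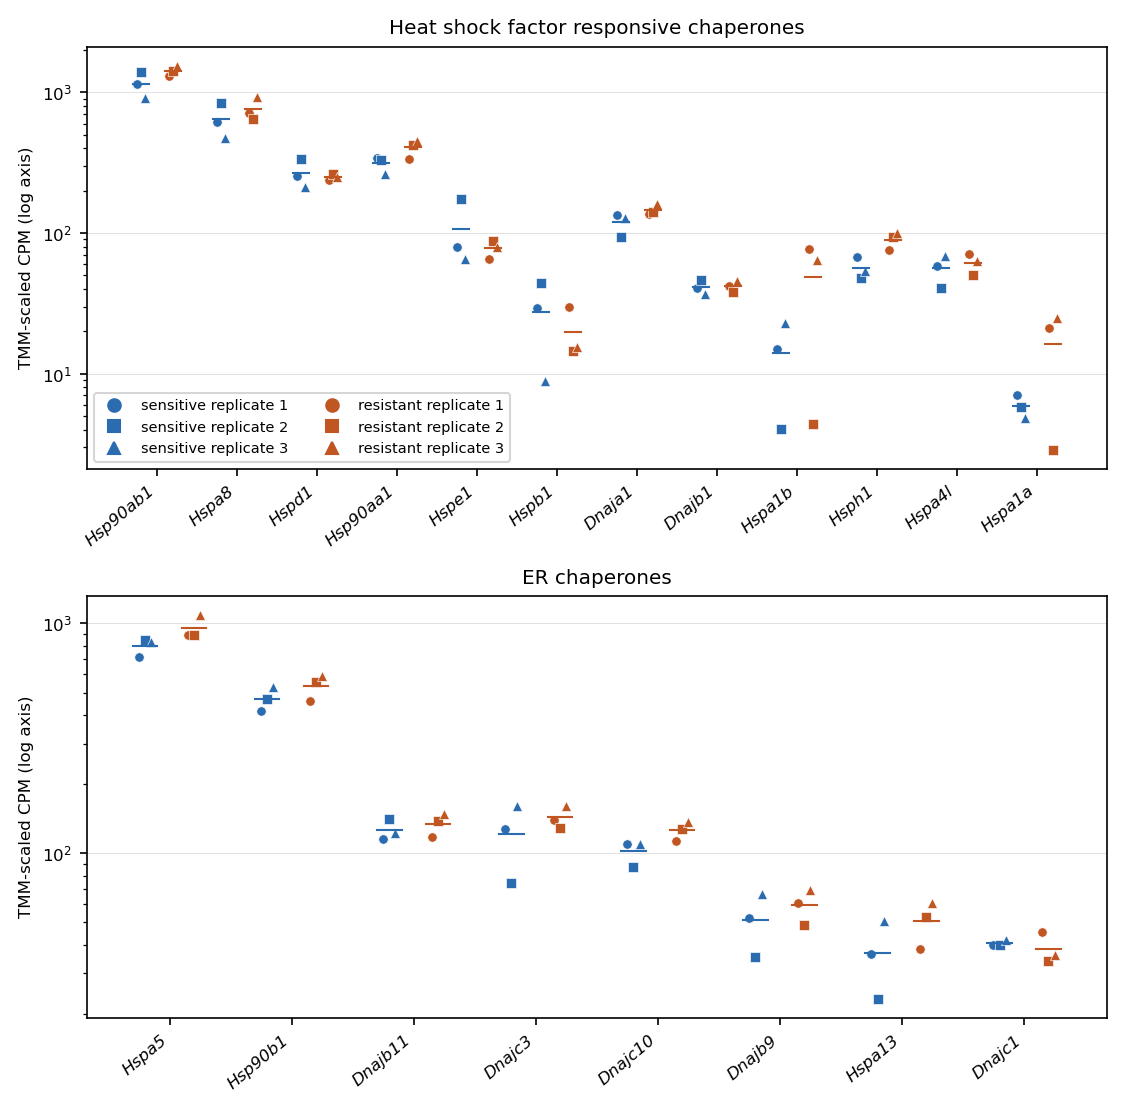
TMM-scaled CPM (log axis) of the heat shock factor responsive members (upper panel) and the ER chaperones (lower panel) in each library, ordered by mean FPKM; symbols mark the replicate and short lines the group mean. The sensitive and resistant points do not overlap for Hsph1, Dnaja1, Hspa5 and Dnajc10, and Hspa1b spreads from 4.42 to 77.5 CPM within the resistant group.

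Hsf1 itself, the factor that drives this response, was at 33.0, 30.4 and 30.8 CPM in the sensitive and 37.0, 33.4 and 38.1 CPM in the resistant libraries. These did not overlap, with a log2 difference of 0.20 ± 0.18 (SE) and an unadjusted edgeR p of 0.303. Among the 28 heat shock factors and co-chaperones that are not members, 12 were above 0 and 16 below, the median was -0.07, and none had an unadjusted p under 0.05. Bag3, a co-chaperone of HSP70 that is itself a target of Hsf1, was at 58.5, 48.9 and 44.0 CPM in the sensitive and 61.7, 55.0 and 66.5 CPM in the resistant libraries. The 8 TRiC subunits, which form the cytosolic chaperonin, had a median of -0.12, with 1 above 0 and none with an unadjusted p under 0.05. The 14 immediate early genes, which respond to tissue dissociation, had a median of -0.06, and their summed level was 1489, 1298 and 1045 CPM in the sensitive and 1499, 1147 and 992 CPM in the resistant libraries. Their median deviation was 0.36, -0.001 and -0.27 on the log2 scale in the sensitive and 0.35, -0.155 and -0.17 in the resistant libraries, so the lowest library was sensitive replicate 3 by the median and resistant replicate 3 by the sum.

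Most ER chaperones lay slightly higher in the resistant libraries, and none had an adjusted p under 0.05 in edgeR. Hspa5, the ER HSP70 and a regulator of the unfolded protein response, was at 714, 845 and 832 CPM in the sensitive and 894, 894 and 1083 CPM in the resistant libraries. Each resistant library was above each sensitive one, with a log2 difference of 0.26 ± 0.21 (SE) and an unadjusted edgeR p of 0.249. Dnajc10 (ERdj5), a disulfide reductase that acts with Hspa5 in ER-associated degradation, was at 109, 87.4 and 109.6 CPM in the sensitive and 113, 127 and 137 CPM in the resistant libraries, with a log2 difference of 0.30 ± 0.19 (SE). Its groups did not overlap either, but the gap was small and the lowest library was sensitive replicate 2. Hsp90b1, the ER HSP90, was at 417, 468 and 528 CPM in the sensitive and 461, 554 and 588 CPM in the resistant libraries, and these overlapped.

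Dnajb9, Dnajc3 and Hspa13 were also lower in sensitive replicate 2 than in any other library, whereas Dnajb11 and Dnajc1 were not. Dnajb9 (ERdj4), a DnaJ protein induced by ER stress, was at 52.3, 35.2 and 66.5 CPM in the sensitive and 60.7, 48.9 and 69.5 CPM in the resistant libraries. Dnajc3 (p58IPK), an inhibitor of the ER stress kinase PERK, was at 127, 74.4 and 161 CPM in the sensitive and 139.8, 129 and 161 CPM in the resistant libraries. Hspa13, a microsomal HSP70 relative, was at 36.5, 23.2 and 50.65 CPM in the sensitive and 38.2, 52.6 and 61.0 CPM in the resistant libraries. In each of these genes sensitive replicate 2 was lowest and the remaining libraries overlapped. Dnajb11 (ERdj3), a soluble partner of Hspa5, was at 116, 141 and 123 CPM in the sensitive and 118, 138 and 148 CPM in the resistant libraries, with a log2 difference of 0.09 ± 0.19 (SE). Dnajc1 (ERdj1), which binds ribosomes at the ER membrane, was at 39.9, 39.98 and 42.0 CPM in the sensitive and 45.4, 33.9 and 36.2 CPM in the resistant libraries, with a log2 difference of -0.08 ± 0.20 (SE).

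Of the 8 ER members, 7 were above 0 with a median of 0.23, none had an unadjusted p under 0.05 in edgeR, and without sensitive replicate 2 the count was 5 of 8 with a median of 0.17. The 13 ER folding and unfolded protein response genes that are not members had a median of 0.06, with 7 above 0. Of these 13 genes, 1 (7.69%) was higher in each resistant library than in any sensitive one, beside 4.64% of all tested genes. This gene, Hyou1, the ER partner of Hspa5, was at 134, 116 and 153 CPM in the sensitive and 163, 174 and 182 CPM in the resistant libraries. Its log2 difference was 0.36 ± 0.19 (SE), with an unadjusted edgeR p of 0.0995. ER stress elements (CCAAT, then 9 free bases, then CCACG, on either strand) were found for 3 of the 7 ER members with a window and for 0.137% of all genes with windows. The ER members too were listed from prior knowledge, so this count describes the list and is not a test of it. The elements are shown in capitals because 7 of the 8 ER members lay above 0 in the fit of all 6 libraries. Whether the elements had a part in those values was not tested. The Hsp90b1 element reads on the opposite strand.
Hspa5, chr2:34771940-34772089, plus strand: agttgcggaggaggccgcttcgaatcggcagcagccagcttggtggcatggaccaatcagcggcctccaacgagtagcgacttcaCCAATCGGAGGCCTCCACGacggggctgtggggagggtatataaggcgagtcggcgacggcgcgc
Hsp90b1, chr10:86705445-86705594, minus strand: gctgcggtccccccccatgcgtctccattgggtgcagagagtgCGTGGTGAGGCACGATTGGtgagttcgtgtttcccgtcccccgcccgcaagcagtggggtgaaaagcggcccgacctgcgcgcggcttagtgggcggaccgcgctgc
Dnajc3, chr14:118937822-118937851, plus strand: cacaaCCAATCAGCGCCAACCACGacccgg
The element starts 65 bases before the start of Hspa5 and 105 before that of Dnajc3. Hsp90b1 holds 2 elements, starting 212 and 107 bases before its start, of which the nearer is shown.

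Of the 8 mitochondrial members, 6 were highest in sensitive replicate 2. Hspa9 (mortalin), the HSP70 of the protein import motor, was at 559, 859.5 and 483 CPM in the sensitive and 551, 490.5 and 524 CPM in the resistant libraries. Hspe1 was at 79.15, 174 and 65.8 CPM in the sensitive and 64.9, 88.0 and 80.0 CPM in the resistant libraries. Its partner Hspd1 was at 255, 337 and 212 CPM in the sensitive and 239.6, 262 and 250.5 CPM in the resistant libraries. In each of these genes sensitive replicate 2 exceeded the other 5 libraries, and the excess was larger for Hspe1 than for Hspd1: the ratio Hspd1 over Hspe1 was 1.94 in that library and 2.98 to 3.69 in the others. Other genes, pseudogenes among them, hold 39.7% of the 50-base words of Hspd1 and 18.4% of those of Hspe1, which makes this ratio less certain.

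Dnajc15 (MCJ), an inner-membrane DnaJ protein that restrains respiration, was at 30.8, 75.2 and 23.2 CPM in the sensitive and 34.5, 30.9 and 24.4 CPM in the resistant libraries. The import-motor subunit Dnajc19 did not follow that library, at 18.1, 19.8 and 22.2 CPM in the sensitive and 15.2, 16.2 and 18.0 CPM in the resistant libraries, so each resistant library was below each sensitive one. Its log2 difference was -0.29 ± 0.22 (SE), with an unadjusted edgeR p of 0.227, and it was -0.30 without sensitive replicate 2. Dnaja3, the mitochondrial DnaJ partner of Hspa9, did not follow it either and stayed between 62.1 and 74.5 CPM in all libraries. Dnajc11, a protein of the inner-membrane organizing complex, was at 67.9, 123 and 72.3 CPM in the sensitive and 78.4, 74.9 and 71.5 CPM in the resistant libraries, so it was high in sensitive replicate 2 only. Dnajc30, which acts on respiratory complex I, ranged from 11.4 to 16.7 CPM with its highest value in the same library.

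Of the 8 mitochondrial members, 7 lay below 0 with a median log2 difference of -0.255, none with an unadjusted p under 0.05 in edgeR. Without sensitive replicate 2 only 2 of 8 lay below 0 and the median was 0.09. The direction of this list thus rested on 1 library, which also had the highest summed level of the TRiC subunits (2596 CPM against 1408 to 1706 in the others) and of the co-chaperones (4042 CPM against 2397 to 2648). All 8 neutrophil markers were also highest there, with a summed level of 5813 CPM against 99.6 to 3339 in the others. The macrophage and Kupffer sum was highest there at 41710 CPM against 22100 to 35270, but its markers were divided. Of the 13, 6 were highest there, among them Marco, Cd5l and Clec4f, and 4 were lowest there (Adgre1, Csf1r, Cd68 and Vsig4). The part of neutrophils or macrophages in the mitochondrial values was not tested. The median deviation of the mitochondrial list was 0.50 on the log2 scale in sensitive replicate 2 and between -0.21 and -0.05 in the other 5 libraries.

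**Figure D4:**
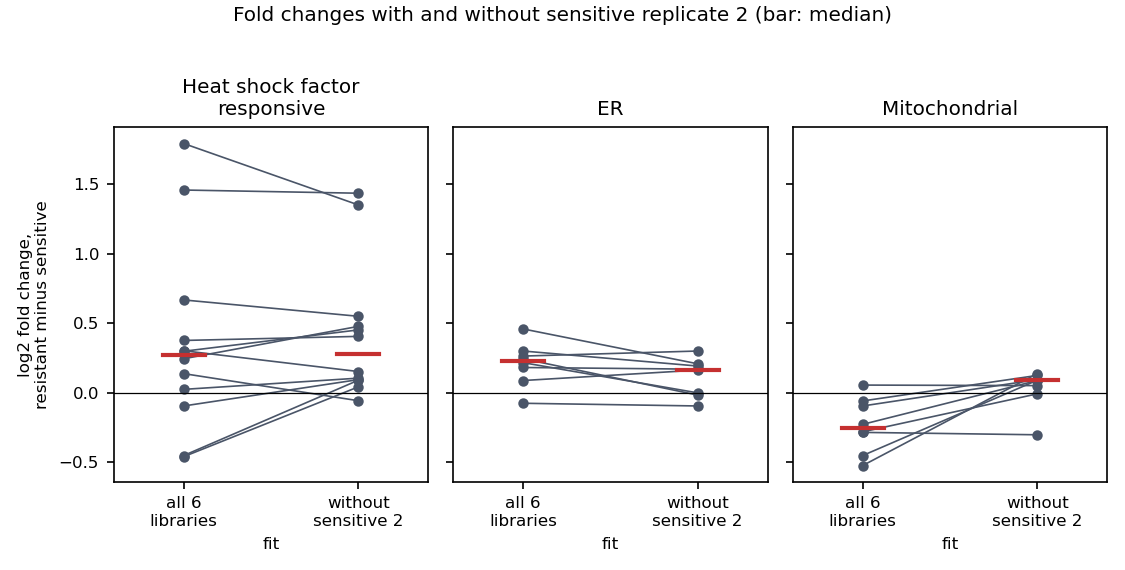
Log2 fold change, resistant minus sensitive, of each member of the heat shock factor responsive, ER and mitochondrial lists, fitted on all 6 libraries and without sensitive replicate 2; each line is a gene and the red bar the median. The mitochondrial median goes from below 0 to 0.09, while the heat shock factor responsive median is 0.27 in one fit and 0.28 in the other.

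The DNAJC family, the most varied of the DnaJ proteins, held the members with the largest negative differences. Dnajc17, a spliceosome-associated protein, was at 10.7, 40.4 and 12.0 CPM in the sensitive and 11.9, 7.45 and 7.28 CPM in the resistant libraries. Sensitive replicate 2 alone was high. The log2 difference was -1.24 ± 0.56 (SE), with an unadjusted edgeR p of 0.0621, and -0.36 without that library. Dnajc8, another spliceosomal DnaJ protein, was at 120.1, 219 and 116 CPM in the sensitive and 114, 119.8 and 111 CPM in the resistant libraries, with the same library high and a log2 difference of -0.40 ± 0.28 (SE).

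Dnajc12, which assists the folding of aromatic amino acid hydroxylases, showed the reverse, with 9.76, 3.96 and 14.1 CPM in the sensitive and 11.8, 13.7 and 15.4 CPM in the resistant libraries. Here sensitive replicate 2 was lowest and the log2 difference was 0.56 ± 0.45 (SE). Dnajc6 (auxilin), a neuronal partner of HSP70 in clathrin uncoating, had 17, 32 and 7 counts in the sensitive and 8, 12 and 0 counts in the resistant libraries, and its log2 difference of -1.69 ± 1.18 (SE) rests on those few reads. Hspa12b, a distant HSP70 relative known from endothelial cells, had 18, 20 and 24 counts in the sensitive and 20, 3 and 10 counts in the resistant libraries (log2 difference -1.06 ± 0.73, SE). Hspa12b was lowest in resistant replicate 2, as was the summed level of the endothelial markers, and the part of endothelial content in its level was not tested.

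Sensitive replicate 2 was the extreme library for many other members too, which was not particular to the members among all tested genes. It was the lowest of the 6 libraries for 21 of the 64 tested members (32.8%), beside 40.7% of all tested genes. It was the highest for 23 of the 64 (35.9%), beside 33.3% of all tested genes. Among the 25 tested DNAJC genes it was lowest for 10 and highest for 10. Dnajc13 (RME-8), a DnaJ protein of endosomes, was lowest there at 103 CPM against 265 to 365 CPM elsewhere, and Dnajc7, which bridges HSP70 and HSP90, was highest there at 242 CPM against 128 to 148 CPM. The lows and highs thus went both ways within the family, and its median deviation in that library was 0.02 on the log2 scale.

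**Figure D5:**
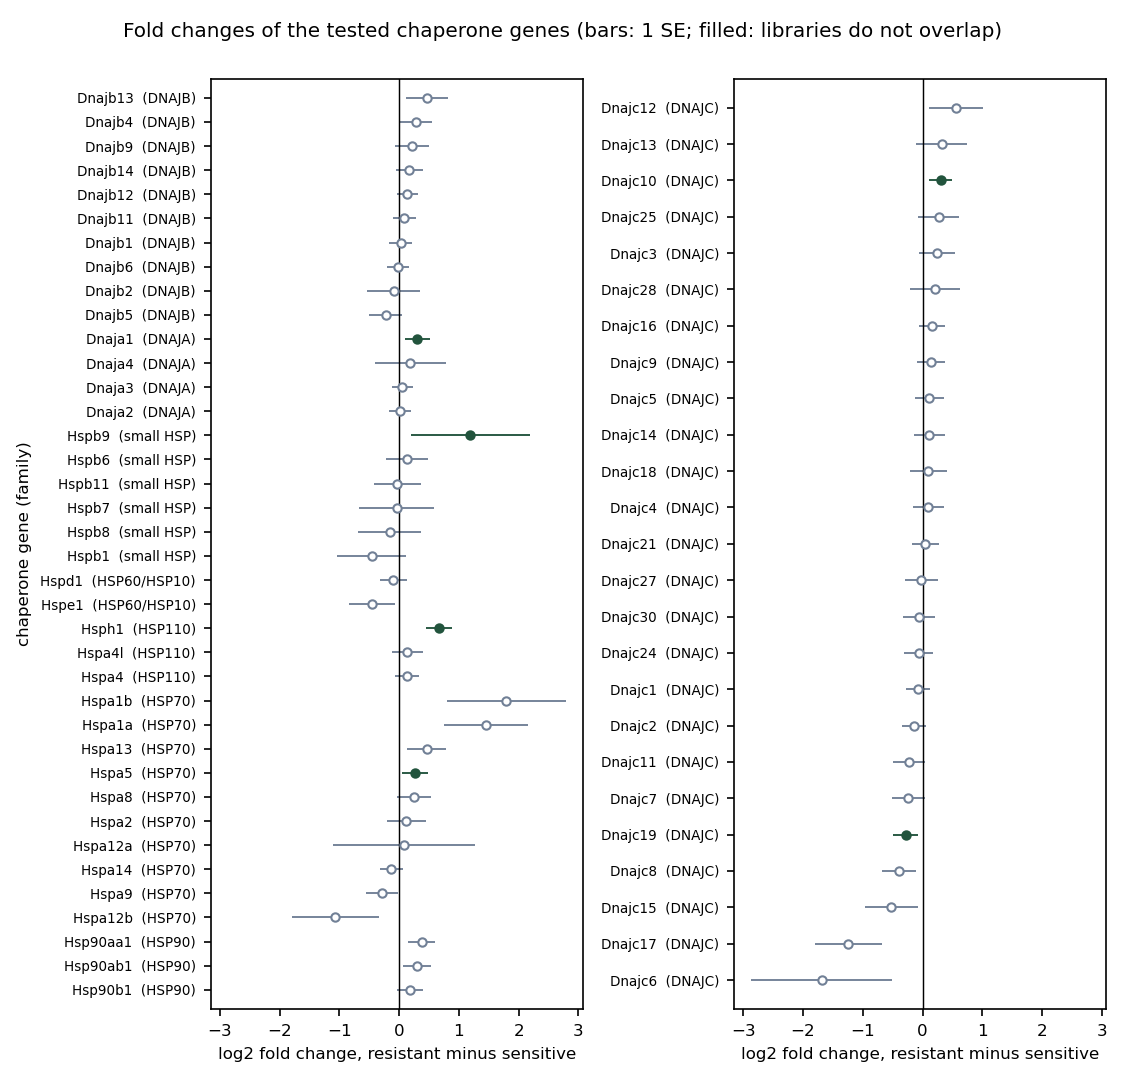
Log2 fold change, resistant minus sensitive, of 63 of the 64 tested chaperone genes with 1 SE, by family, from edgeR; filled points are genes whose libraries do not overlap between the groups. Hspa1a and Hspa1b lie furthest right, Dnajc6 and Dnajc17 furthest left, and only Hsph1 has an unadjusted p under 0.05.

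Across the families the differences were small. All 3 HSP90 genes, all 3 HSP110 genes and all 4 DNAJA genes lay above 0, as did 7 of 10 tested HSP70 and 7 of 10 tested DNAJB genes, while DNAJC was evenly split with 13 of 25. The median log2 difference was 0.30 for HSP90, 0.18 for HSP70, 0.14 for HSP110, 0.12 for DNAJA, 0.11 for DNAJB and 0.045 for DNAJC, and it was -0.04 for the small HSPs. Each of the 3 HSP90 genes was highest in resistant replicate 3. In all, 5 of the 64 tested members (Dnaja1, Dnajc10, Hspa5, Hspb9 and Hsph1) were higher in each resistant library than in any sensitive one, a share of 7.81% beside 4.64% of all tested genes. Hspb9 is no support here, since it passed the filter on low counts only through the resistant libraries, where it was high. In the other direction 1 member, Dnajc19, did not overlap, a share of 1.56% beside 4.38% of all tested genes. With 3 libraries against 3, an exact two-sided permutation test of a single gene cannot give a p below 0.10. The separate origin of the libraries from individual mice is not stated. The p-values thus set the group difference against the variation between these samples, which may not be the variation between mice.

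As a share of the library total the 73 members together took 0.668% to 0.746% of counts in the sensitive and 0.760% to 0.877% in the resistant libraries. On this scale of raw totals the ranges did not overlap, nor did those of the HSP90 genes, with 0.169% to 0.203% in the sensitive and 0.223% to 0.262% in the resistant libraries. On the TMM-scaled CPM used elsewhere both overlapped through sensitive replicate 2. The summed level of the members was then 7005, 8126 and 6719 CPM in the sensitive and 7743, 7717 and 8641 CPM in the resistant libraries, and that of the HSP90 genes 1904, 2192 and 1704 CPM and 2098, 2387 and 2578 CPM. The HSP70 genes took 0.191% to 0.231% and 0.210% to 0.277%, which overlapped. DNAJC genes took 0.131% to 0.162% and 0.148% to 0.179%. The share is dominated by the most abundant members, so it follows Hsp90ab1, Hspa5 and Hspa8 more than the inducible Hspa1a and Hspa1b.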

How the data were processed

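RNA-seq of 6 libraries was analysed, 3 per group, grouped and numbered by their titles. The authors aligned reads with Hisat2 2.0.5 and deposited raw counts per gene from featureCounts 1.5.0-p3, together with FPKM values, which the authors computed from the count, the gene length and the library total. Reads carried no molecular identifiers, so limits from counts cover counting error only. The submitters' processing notes name mm9, but gene identifiers matched GENCODE M21 (GRCm38), which gave the annotation, and promoter windows were those of RefSeq on GRCm38.p6. The labels name ribosomal RNA depletion and the study also names poly(A) selection, and whether counting used strand is not given in the sources used here. A further table holds the authors' own fold changes and p-values and was not used.

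Counts were tested in R 4.3.3 with edgeR 4.0.16 (filterByExpr, TMM, robust quasi-likelihood test, two-sided), adjusted by Benjamini-Hochberg over 15474 genes with a threshold of 0.05. The biological coefficient of variation was 42.2%. Standard errors are those implied by the F statistic. Scripts were tested on simulated data with the dispersions of these libraries. There 0 of 100 2-fold changes and 47 of 100 4-fold changes had an adjusted p under 0.05 in edgeR. A gene that did not pass the test may therefore still differ between the groups. DESeq2 1.42.0, limma 3.58.1 (voom, and on log2(FPKM + 1)), other size factors and filters, a replicate block and leaving out each library were alternatives. Replicate numbers did not pair the libraries, since the correlations of same-numbered deviations were -0.000932, 0.0343 and 0.194. The chi-square of 2 replicates of a group, divided by the number of genes, was 36.7 to 279, so no library was a duplicate of another of its group.

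Values by library are named for the HSP90 genes, the 3 lists, the most abundant member of each family, members with an unadjusted p under 0.05 or without overlap, and the 5 largest positive and 5 largest negative differences. Dnajb3, Dnajc7, Dnajc13, Hspb7, Hspb8, Hspa12a, Bag3, Hyou1 and the untested members were named after their values were seen. Members and lists were chosen with earlier results of these data known. One member is included in the counts and sums over members but is not reported here by itself, and the figures show 63 of the 64 tested members.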

Additional observations from a re-analysis of the deposited data

How the results depend on the processing

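No alternative gave a member an adjusted p under 0.05. The number of members with an unadjusted p under 0.05 was 1 in the reported fit, 4 by DESeq2, 2 on log2(FPKM + 1), 3 with no filter, 2 with the replicate block (Hsph1 and Hspa1b), and 0 to 3 when a library was left out. Among all genes, those with an adjusted p under 0.05 numbered 24 by DESeq2 and 2 with no filter, and those with an unadjusted p under 0.05 numbered 732 and 2036, and 167 to 1056 when a library was left out. Members without overlap numbered 8 to 16 when a library was left out, where fewer libraries make overlap rarer for all genes (12.7% to 26.8%). The median log2 difference of the tested members was 0.158 with library totals, 0.169 with no filter and 0.069 to 0.158 when a library was left out. With library totals the median of all tested genes was also higher, at 0.065 beside 0.008 in the reported fit. The median of the mitochondrial members was -0.354 to 0.089 when a library was left out. Of 473 values of the 34 named members under alternatives, 454 kept their direction and 19 reversed, 14 of these by leaving out a library. With at least 10 counts in every library Dnaja2 was at -0.011 and Dnajb1 at -0.003, and Dnajc30 was at 0.019 with library totals, 0.020 on log2(FPKM + 1) and 0.030 with no filter. When a library was left out, Dnaja2 lay between -0.041 and 0.076, Dnajb1 between -0.043 and 0.105, Dnajb9 between -0.001 and 0.455, Dnajc1 between -0.202 and 0.019, Dnajc11 between -0.378 and 0.088, Dnajc15 between -0.812 and 0.138, Dnajc3 between -0.017 and 0.515, Dnajc30 between -0.154 and 0.125, Hspa4l between -0.057 and 0.327, Hspb1 between -0.874 and 0.042, Hspd1 between -0.228 and 0.094, and Hspe1 between -0.691 and 0.090. The cause of these changes was not tested. The replicate numbers did not pair the libraries, and with the replicate block 0 genes had an adjusted p under 0.05 and 467 an unadjusted one.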
